A study of Mus musculus with 6 samples.

Results

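Among the small RNA sequences deposited for 6 libraries labelled as mouse, 5 names borrowed from other species together took 2.64% to 61.8% of a library's reads. They are bta-mir-2887, bta-mir-2904 and bta-miR-11987 from cattle, hsa-mir-1268a from human and eca-mir-615 from horse. Nearly all of these reads were under the cattle names, as hsa-mir-1268a took at most 0.194% and eca-mir-615 at most 0.0744%. Every entry of the deposited table whose name starts with one of the 5 names was taken, and those equal in both name and sequence were added up. This gave 18 features with 17 distinct sequences, of 756 features with 724 distinct sequences in all. By name, 2 features belonged to bta-mir-2887, 2 to bta-mir-2904, 8 to bta-miR-11987, 5 to hsa-mir-1268a and 1 to eca-mir-615. The names were chosen by measured values, their abundance and the difference of their read share between the groups below, so the differences between groups are described here and not tested.

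The libraries came from cells labelled Mes23.5, a hybrid line of a mouse neuroblastoma and rat midbrain neurons with dopaminergic traits. LPS, a bacterial cell wall component that activates inflammatory signalling, had been present for 24 h in all 6. In 3 libraries (SIX2_EV) the cells had received extracellular vesicles of microglia overexpressing the transcription factor SIX2, and in the other 3 (control_EV) vesicles of control microglia, so no library was free of LPS or of vesicles. The growth protocol speaks of BV2 cells, which are mouse microglia, so the line is given as labelled. Whether the libraries of a group came from separate cultures is not stated.

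A miRNA is cut from a hairpin precursor by Drosha and Dicer and is loaded into an Argonaute protein, where the bases near its 5′ end, the seed, pair with target transcripts. Small RNA libraries hold every RNA piece of the right length, so they also catch breakdown products of ribosomal and transfer RNA. Several entries in miRNA catalogues were made from such pieces, and the entries bta-mir-2887 and bta-mir-2904 are known to resemble large-subunit ribosomal RNA. Per the labels' protocols the authors had removed ribosomal and other common RNA classes from the raw reads. No ribosomal RNA sequence was used here, so a match of the features to it was not tested.

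The most abundant sequence of each name is shown to make clear what was counted, with some of the shorter or shifted forms that are compared below. The single capital marks the base that differs from the foreign entry.
bta-mir-2887-2-p5_1ss15CG: cggtgcggagagccGttcgt
bta-mir-2904-3-p3_1ss15TC: agcctcggttggccCcggatagccgg
bta-mir-2904-3-p5_1ss15TC: agcctcggttggccCcggat
bta-miR-11987_L-1_1ss8TA: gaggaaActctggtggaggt
bta-miR-11987_L-2_1ss8TA: aggaaActctggtggaggt
bta-miR-11987_L-3_1ss8TA: ggaaActctggtggaggt
bta-miR-11987_L-1R-2_1ss8TA: gaggaaActctggtggag
bta-miR-11987_L-2R-1_1ss8TA: aggaaActctggtggagg
hsa-miR-1268a_R+2_1ss10TG: cgggcgtggGggtgggggcc
hsa-mir-1268a-p3_1ss9TG: gggcgtggGggtgggggcc
eca-mir-615-p5_1ss16CG: tctccctctccccccGtcc
In these names L and R give the shift of the left and right end, in bases, from the foreign entry, and the ending gives the changed base. The ending is often left out from here on. All 18 features differed from their foreign entry by 1 base. The changes were C15G in bta-mir-2887-2-p5 and T15C in both bta-mir-2904 features, counted from 1 at the first base of the read. They were T8A in the bta-miR-11987 features shown, counted from the first base of the entry, T10G in hsa-miR-1268a_R+2 and C16G in eca-mir-615-p5.

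The 2 bta-mir-2904 features shared their first 20 bases, and the bta-miR-11987 features were end variants of 1 sequence, with T8G in place of T8A in 1 rare form. Of 136 pairs of distinct sequences, 29 shared a run of 14 bases, and 0 of these pairs joined different names. Bases 2 to 8, which form the seed where a read acts as a miRNA, took 11 forms over the 18 features, and none of the 11 was shared between names. Through its left ends and the T8G form, bta-miR-11987 had 5 of them, among them aggaaac in L-1, ggaaact in L-2 and gaaactc in L-3. Both bta-mir-2904 features had gcctcgg. Of the 11 forms, 2 also stand in RefSeq mature mouse miRNAs (1738 entries, GRCm38.p6): ggtgcgg of bta-mir-2887-2-p5 in mmu-miR-675-5p and ggaaact of L-2 in mmu-miR-8107. No whole sequence was found in the RefSeq table, with 0 of 17 matched among 2743 mature and hairpin entries. Mouse Mir615, on chromosome 15, shared a run of at most 9 bases with eca-mir-615-p5, which the deposited table puts on chromosome 2.

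The sequences were short and rich in G and C. The 17 ran from 18 to 26 bases with a median of 19. The median was 21 over all 724 sequences, and 22 over the 351 with a mature mouse or rat miRNA name and a mouse position. The G and C content of the 17 ran from 52.4% to 90.0% with a median of 68.4%. Medians were 50.0% over all 724 sequences and 45.8% over the 351. The hsa-mir-1268a reads were at the upper end, with 88.9% to 90.0%, and bta-miR-11987 reads at the lower end, with 52.4% to 57.9%.

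**Figure D1:**
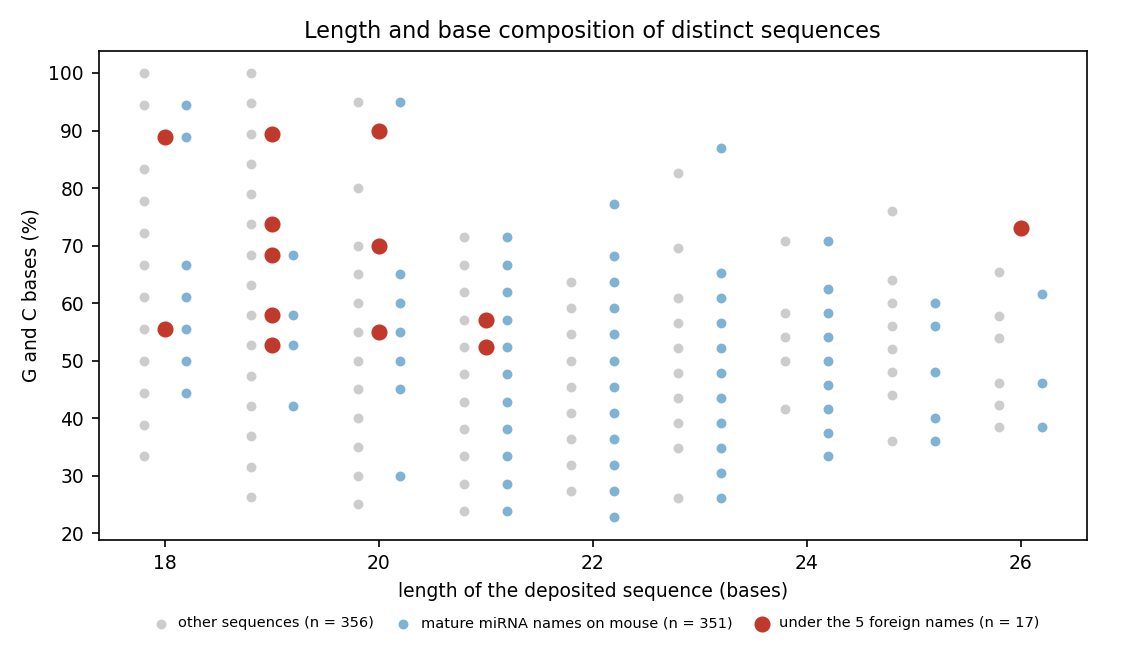
Length in bases (x axis) against G and C content in percent (y axis) of the distinct deposited sequences. Red points are the 17 sequences under the 5 foreign names. Blue points are the 351 sequences with a mature mouse or rat miRNA name placed on mouse, and grey points the other 356. Equal values lie on top of each other, and blue and grey points are shifted sideways by a fraction of a base for legibility. All red points lie above 52% and all but 1 of them at or below 21 bases.

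Of the 18 features, 17 were placed on the mouse genome and 9 matched a deposited hairpin without a mismatch. The deposited hairpins of the 4 reads with the highest counts are shown, with the read in capitals. Where a read has 2 hairpins, 1 is shown. Coordinates are as deposited, in a genome build not given in the sources used here.
bta-mir-2887-2-p5, chr9:56130999-56131055, minus strand: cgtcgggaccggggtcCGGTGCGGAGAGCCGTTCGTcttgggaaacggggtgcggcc
bta-mir-2904-3-p3, chr16:10961861-10961928, plus strand: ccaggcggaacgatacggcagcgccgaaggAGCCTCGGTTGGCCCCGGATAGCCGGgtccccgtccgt
bta-miR-11987_L-1, chr10:105074013-105074050, plus strand: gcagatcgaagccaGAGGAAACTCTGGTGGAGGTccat
bta-miR-11987_L-2, chr2:20904679-20904705, plus strand: gaagccagAGGAAACTCTGGTGGAGGT
The read of bta-mir-2887-2-p5 occurred without a mismatch in 4 GENCODE M21 genes of 57 bases, Gm24270, Gm24245, Gm24187 and Gm23935, on chromosomes 9, 4, 13 and 16. All 4 are annotated as miRNA genes, and the read began at base 17 of each. The bta-mir-2904-3-p3 read had a second deposited hairpin, on chromosome 1, and the 2 hairpins shared a run of 40 bases that includes the read. The bta-miR-11987 features with T8A were deposited at 12 positions on 9 chromosomes. All 12 hairpins held the same 24 bases, in which complementary arms of 6 bases flank a loop of 4. These hairpins were 25 to 44 bases long with a median of 27. The median was 98 over 401 entries with mature mouse or rat miRNA names, of which 1 was shorter than 40. Neither the bta-mir-2904 and bta-miR-11987 T8A reads nor eca-mir-615-p5 had a GENCODE M21 transcript match with up to 1 mismatch. The 18-base hsa-miR-1268a read without an end shift matched Gm14236, an antisense RNA gene on chromosome 2, and the reverse strand of 1 gene.

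The libraries held 179621, 232635 and 184208 deposited reads in SIX2_EV and 257628, 253037 and 421279 in control_EV, so the SIX2_EV libraries were the shallower. Mature mouse or rat miRNA names placed on mouse took 17.2% ± 13.0 of a SIX2_EV library and 51.4% ± 19.2 of a control_EV library (SD, n = 3 each). Mature names with the prefix of another species were not counted in this share. Since shares sum to a fixed total, shares of the foreign names and of miRNAs are not independent, and less of one RNA and more of another cannot be told apart. Replicate 3 of both groups differed from the rest in mir-1285 reads, with 7.94% in SIX2_EV replicate 3 and 7.48% in control_EV replicate 3, against 0.202% to 0.447% in the other 4. Of 7 neuronal markers, 5 were listed, summing to 662.0 to 3626.3 CPM (counts scaled to a common total of all reads) in SIX2_EV and 2845.1 to 6112.3 in control_EV. Most of this sum was miR-7a-5p, with 597.5 to 3110.6 CPM in SIX2_EV and 2499.7 to 4560.6 in control_EV. The neuronal miR-124-3p was not listed, and miR-9-5p was listed only in control_EV replicate 1, with 27.1 CPM. Likewise miR-218-5p was listed only in control_EV replicate 3, with 49.8 CPM. All 7 myeloid or leukocyte markers and all 3 red blood cell markers were listed. The first summed to 10011.4 to 36863.3 CPM in SIX2_EV and 40626.4 to 75036.5 in control_EV, the second to 4292.2 to 16581.8 CPM in SIX2_EV and 23046.5 to 48449.4 in control_EV. Most of the myeloid or leukocyte sum was miR-146a-5p, with 8992.6 to 30408.6 CPM in SIX2_EV and 34986.5 to 65852.0 in control_EV. Whether this level came from leukocytes, or from other cells under the LPS present in all 6 libraries, was not tested. In the myeloid or leukocyte list miR-342-3p was present only in control_EV replicate 3, with 40.4 CPM. SIX2_EV replicates 1 and 2 lacked miR-223-3p, and SIX2_EV replicate 2 lacked miR-150-5p. Of 2 astroglial or oligodendroglial markers, 1 was listed, with 0.0 to 66.8 CPM in SIX2_EV and 42.7 to 63.2 in control_EV. The sums are in CPM of all reads, of which mature mouse or rat miRNA names as a whole took less in SIX2_EV on average. In such bulk samples this lower share, fewer cells of a type and less RNA per cell cannot be told apart. Depth, marker level and mir-1285 share moved with the groups or with replicate 3, and their part in the values below was not tested.

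The 5 names together took 55.2%, 61.8% and 26.3% of the reads in the SIX2_EV libraries, against 37.5%, 25.0% and 2.64% in the control_EV libraries. The groups overlapped, since SIX2_EV replicate 3 lay below control_EV replicate 1. The means were 47.7% ± 18.9 in SIX2_EV and 21.7% ± 17.7 in control_EV (SD, n = 3 each), a difference of 26.0 percentage points. Without replicate 3 of both groups the difference was 27.2 points, and without control_EV replicate 3 alone it was 16.5 points. With each read taken as independent, counting error on such shares was small beside the spread between libraries. The widest Wilson 95% interval reached 0.23 points to either side. Several reads may copy the same molecule, so these intervals may be too narrow even for counting error. They do not cover variation between libraries. Taken singly, 2 of the 5 names had higher shares in every SIX2_EV library than in any control_EV library. This was so for 2.82% of all 319 features with enough reads for a fit, and nothing is read from the comparison, as the names were chosen on this contrast.

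**Figure D2:**
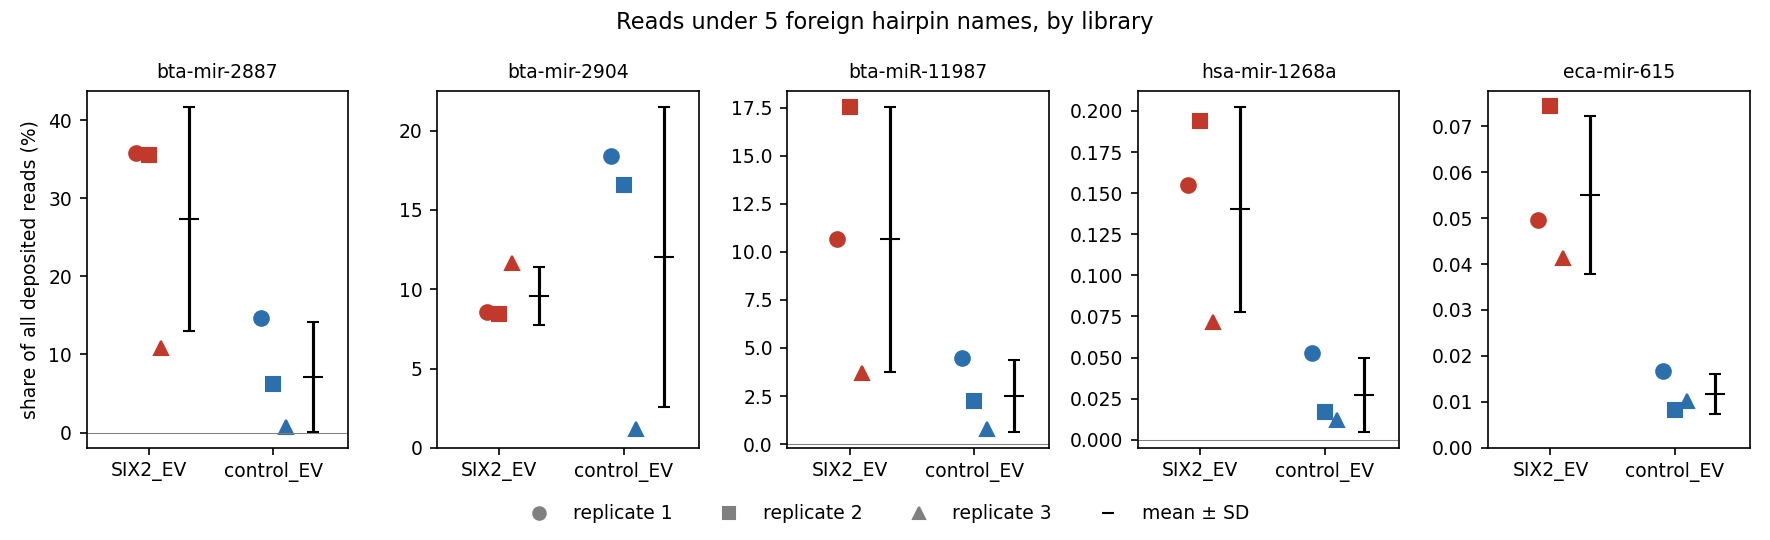
Share of all deposited reads in percent (y axis, 1 scale per panel) for each of the 5 foreign names in the SIX2_EV libraries (red) and the control_EV libraries (blue). Symbols mark the replicate number and black bars the mean ± SD of 3 libraries. The groups are apart for hsa-mir-1268a and eca-mir-615 and overlap for the other names, and for bta-mir-2904 the mean is lower in SIX2_EV.

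The largest of the 5 was bta-mir-2887, with 35.7%, 35.6% and 10.8% of the reads in SIX2_EV, against 14.6%, 6.17% and 0.649% in control_EV. SIX2_EV replicates 1 and 2 were alike and above all control_EV libraries, and replicate 3 was below control_EV replicate 1. The mean was 27.4% ± 14.3 in SIX2_EV and 7.14% ± 7.03 in control_EV (SD, n = 3 each), a ratio of 3.83. Almost all of it was the 20-base bta-mir-2887-2-p5_1ss15CG, with 64159, 82684 and 19879 reads in SIX2_EV, against 37618, 15615 and 2733 in control_EV. This feature ranked first of 756 over all libraries together. By library it ranked 1, 1 and 3 in SIX2_EV, against 2, 5 and 33 in control_EV. The overlapping bta-mir-2887-2-p3, which starts 3 bases further in, had 21, 34 and 0 reads in SIX2_EV, against 17, 7 and 0 in control_EV. A value of 0 means that the table lists none, as sequences appear in a library only from about 5 reads.

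For bta-mir-2904 the order of the groups was the other way round in share of reads, and it turned with the scale. It took 8.56%, 8.44% and 11.7% in SIX2_EV, against 18.4%, 16.6% and 1.16% in control_EV. The control_EV libraries held both the highest values and the lowest. The means were 9.55% ± 1.83 in SIX2_EV and 12.0% ± 9.47 in control_EV (SD, n = 3 each), a difference of -2.50 points, smaller than the spread within control_EV. Without control_EV replicate 1 the difference was 0.675 points, and without replicate 3 of both groups it was -8.99 points. In the authors' normalized signal, which multiplies the reads by 1 factor per library, the sums were 35428, 66722 and 22948 in SIX2_EV, against 40137, 23772 and 1111 in control_EV, and the mean was then higher in SIX2_EV. The 26-base form had 13880, 16953 and 20058 reads in SIX2_EV, against 41551, 37808 and 4268 in control_EV, where it ranked first in replicates 1 and 2. The 20-base form, which lacks its last 6 bases, had 1494.5, 2679 and 1419 reads in SIX2_EV, against 5820.5, 4177 and 631 in control_EV. The number of 20-base reads per 26-base read was 0.112 ± 0.0438 in SIX2_EV and 0.133 ± 0.0197 in control_EV (SD, n = 3 each). The groups overlapped in this ratio, with 0.0707 to 0.158 in SIX2_EV and 0.1105 to 0.148 in control_EV.

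Reads named bta-miR-11987 took 10.7%, 17.5% and 3.72% in SIX2_EV, against 4.48%, 2.22% and 0.809% in control_EV. SIX2_EV replicate 3 lay below control_EV replicate 1, and the other 2 SIX2_EV libraries lay above all control_EV libraries. The means were 10.6% ± 6.90 in SIX2_EV and 2.50% ± 1.85 in control_EV (SD, n = 3 each), a ratio of 4.25. Their difference was 8.14 points, and 4.70 points without SIX2_EV replicate 2. The form bta-miR-11987_L-1_1ss8TA had 9689, 17835 and 2392 reads in SIX2_EV, against 4590, 2666 and 1487 in control_EV. The form L-2, which starts 1 base later, had 7107, 16527 and 3696 reads in SIX2_EV, against 4939, 2217 and 1275 in control_EV. As shares of all reads, L-1 overlapped between the groups, whereas L-2 was higher in every SIX2_EV library. The form L-1R-2 had 1577, 4316 and 283 reads in SIX2_EV, against 1247, 442 and 337 in control_EV. The form bta-miR-11987_L-3_1ss8TA had 217, 544.5 and 136.5 reads in SIX2_EV, against 148.5, 41.5 and 77 in control_EV. The form L-2R-1 had 575.5, 1500.5 and 340.5 reads in SIX2_EV, against 619.5, 239.5 and 234 in control_EV. Part reads are as deposited. The other 3 forms had at most 23 reads in any library and were too rare for the test of all features.

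The ends of the bta-miR-11987 reads were spread in much the same way in both groups. Reads starting 1 base after the first base of the entry made up 58.7%, 54.4% and 39.1% of them in SIX2_EV, against 50.6%, 55.4% and 53.5% in control_EV. Those starting 2 bases after it made up 40.1%, 44.2% and 58.9% in SIX2_EV, against 48.1%, 43.8% and 44.3% in control_EV. SIX2_EV replicate 3 was the 1 library where the later start was clearly the more common, and the groups overlapped on both measures. At the right end 85.7% to 90.9% of the reads in SIX2_EV and 83.3% to 87.8% in control_EV stopped where the entry does. Reads 2 bases shorter there made up 4.13% to 10.6% in SIX2_EV and 7.88% to 10.8% in control_EV.

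**Figure D3:**
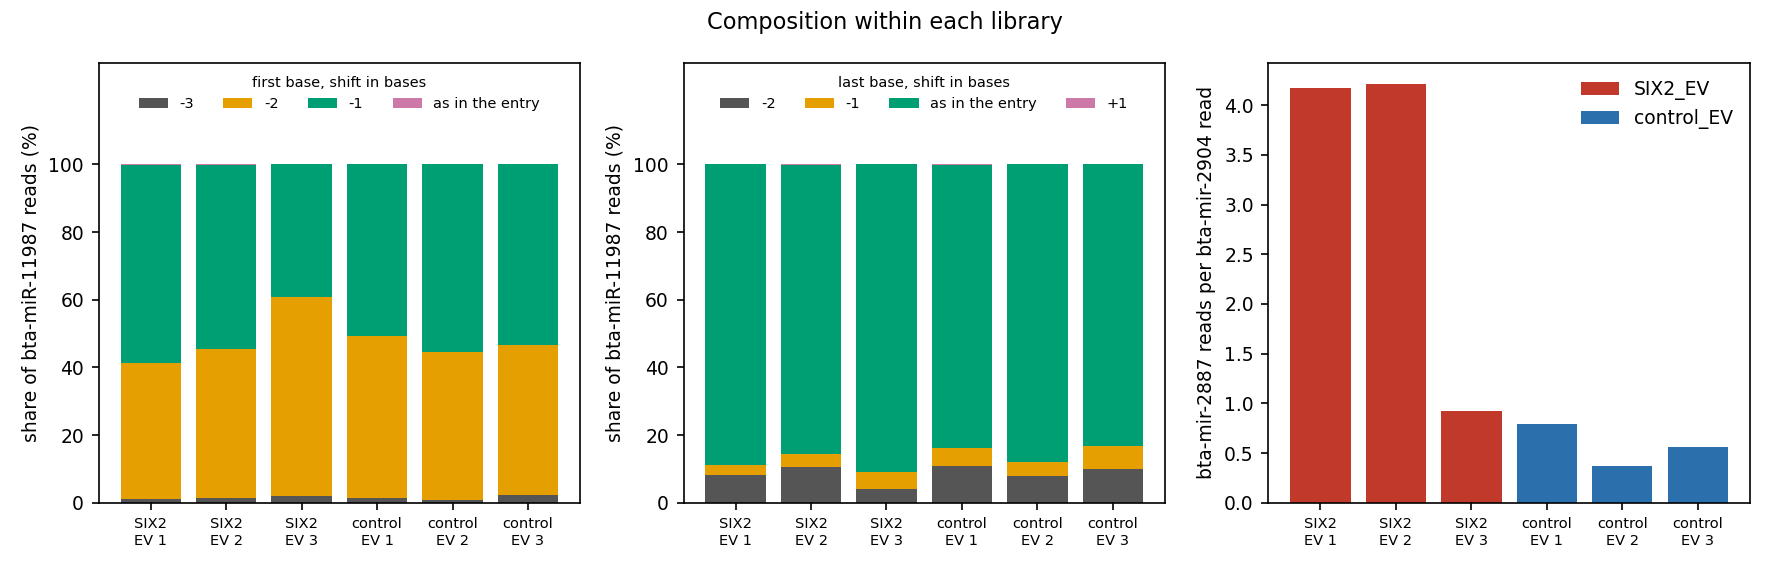
Left and middle panels: share of bta-miR-11987 reads in percent (y axis) by the shift of the first and of the last base from the entry, 1 bar per library. Right panel: reads of bta-mir-2887 per read of bta-mir-2904 (y axis), SIX2_EV in red and control_EV in blue. The end patterns overlap between the groups, and the ratio is 4.17 and 4.21 in SIX2_EV replicates 1 and 2 but below 1 in the other 4 libraries.

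The 2 names with few reads were the ones whose groups did not overlap. Reads named hsa-mir-1268a took 0.155%, 0.194% and 0.0717% in SIX2_EV, against 0.0528%, 0.0170% and 0.0119% in control_EV. The means were 0.140% ± 0.0624 in SIX2_EV and 0.0272% ± 0.0223 in control_EV (SD, n = 3 each), a ratio of 5.15. The form hsa-miR-1268a_R+2_1ss10TG had 129, 146 and 50 reads in SIX2_EV, against 33, 13 and 13 in control_EV. The form R+1 had 78, 120 and 32 reads in SIX2_EV, against 51, 20 and 20 in control_EV. The form without an end shift, which has no mouse position in the table, had 29, 89 and 23 reads in SIX2_EV, against 28, 0 and 12 in control_EV. The features hsa-mir-1268a-p3 and hsa-mir-1268a-p5 are 1 sequence whose reads were divided evenly, and each had 21, 48 and 13.5 reads in SIX2_EV, against 12, 5 and 2.5 in control_EV. They were placed on chromosomes 3 and 8 and are not independent of each other.

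The single feature eca-mir-615-p5_1ss16CG had 89, 173 and 76 reads in SIX2_EV, against 43, 21 and 43.5 in control_EV. As shares of all reads these were 0.0495%, 0.0744% and 0.0413% in SIX2_EV, against 0.0167%, 0.0083% and 0.0103% in control_EV. The means were 0.0551% ± 0.0172 in SIX2_EV and 0.0118% ± 0.0044 in control_EV (SD, n = 3 each), a ratio of 4.68. Here replicate 3 of each group was close to the other libraries of that group. Its deposited position, chr2:30087408-30087491 on the minus strand, differs from the read by T17C, counted from the first base of the read with the base of the read given first.

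Set against each other within a library, the names did not keep a fixed proportion. There were 4.17, 4.21 and 0.926 reads of bta-mir-2887 per read of bta-mir-2904 in SIX2_EV, against 0.795, 0.372 and 0.558 in control_EV. All SIX2_EV values were above all control_EV values, replicate 3 by little, and the means were 3.10 ± 1.89 in SIX2_EV and 0.575 ± 0.212 in control_EV (SD, n = 3 each). A ratio of this kind does not depend on the total of the library. For bta-miR-11987 there were 1.25, 2.08 and 0.319 reads per read of bta-mir-2904 in SIX2_EV, against 0.244, 0.134 and 0.696 in control_EV. These overlapped, because control_EV replicate 3 exceeded SIX2_EV replicate 3. Between bta-mir-2887 and bta-miR-11987 the ratio was 3.35, 2.03 and 2.90 in SIX2_EV, against 3.26, 2.79 and 0.802 in control_EV. It stayed between 2.03 and 3.35 in 5 libraries, and control_EV replicate 3 was the exception.

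Over the 6 libraries, the log2 levels (CPM plus 1) of bta-mir-2887 and bta-miR-11987 had a Pearson correlation of 0.956. It was 0.722 between bta-mir-2887 and bta-mir-2904 and 0.515 between bta-miR-11987 and bta-mir-2904. Levels of hsa-mir-1268a and eca-mir-615 had a correlation of 0.952 with each other, and of 0.402 and 0.189 with bta-mir-2904. With bta-mir-2887 their correlations were 0.907 and 0.757, and with bta-miR-11987 they were 0.961 and 0.861. The points are the same 6 libraries, with their depth and total in common, so these values are descriptions only. Among 171 other features listed in all 6 libraries and averaging 100 CPM or more, those most alike to bta-mir-2887 were predicted sequences without a miRBase name. These were PC-3p-42241_90 (0.994), PC-3p-13599_559 (0.990) and PC-5p-32469_140 (0.938). The same 3 features stood closest to bta-miR-11987, with 0.966, 0.973 and 0.908. The hairpin deposited for PC-3p-42241_90, 127 bases long, also contains the L-1 read of bta-miR-11987, 46 bases after the start of PC-3p-42241_90 itself. Most alike to bta-mir-2904 were eca-mir-8986a-p5 (0.994), PC-3p-1417_8222 (0.968) and PC-5p-7527_1248 (0.920). Nearest to hsa-mir-1268a were mmu-mir-6236-p5 (0.924), PC-3p-13599_559 (0.924) and PC-3p-42241_90 (0.917). Nearest to eca-mir-615 were mmu-mir-6236-p5 (0.950), mmu-mir-6240-p3 (0.924) and bta-miR-11980 (0.888).

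Other names suspected to mark fragments of longer RNAs were taken from a list of 39 hairpin numbers, which matched 23 features. Their summed share was 27.4% ± 4.48 for SIX2_EV and 18.0% ± 5.45 for control_EV (SD, n = 3 each). The most abundant, mmu-mir-6240-p5, had 10.7%, 12.2% and 11.4% in SIX2_EV, against 14.2%, 6.81% and 4.94% in control_EV. It overlapped between the groups, as bta-mir-2887 did. For mmu-mir-6240-p3 the shares were 6.90%, 4.93% and 6.22% in SIX2_EV, against 2.85%, 1.56% and 2.19% in control_EV. For mmu-mir-6236-p5 they were 6.33%, 5.72% and 5.65% in SIX2_EV, against 4.17%, 2.46% and 3.06% in control_EV. Both were higher in every SIX2_EV library than in any control_EV library. Replicate 3 of SIX2_EV, low in bta-mir-2887 and bta-miR-11987, was close to the other SIX2_EV libraries in all 3 of these features. The direction was not common to the list, as most of the 23 features, many with few reads, had a lower mean share in SIX2_EV. Lower in every SIX2_EV library were bta-miR-2478_L-2 (mean 0.0040% in SIX2_EV, 0.0366% in control_EV) and hsa-miR-4454_L-2 (0.0014% and 0.0188%).

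A fit over all 319 features with enough reads, with edgeR's quasi-likelihood test and TMM scaling, called 0.0% of them at a Benjamini-Hochberg adjusted p under 0.05. Of these 319, 39 had an unadjusted p under 0.05, and DESeq2 on the same features called 20. Of the 18 foreign-named features, 15 had enough reads for the fit, and the 3 rare bta-miR-11987 forms did not. The log2 fold change, SIX2_EV over control_EV, was above 0 for 15 of the 15 and for 35.4% of all features. Its median was 3.69 over the 15 and -0.30 over all 319. The median over the 15 ran from 2.52 without SIX2_EV replicate 2 to 4.92 without control_EV replicate 1. Shares were higher in every SIX2_EV library than in any control_EV library for 7 of the 15 and for 2.82% of all features. The 7 were the forms L-2 and L-3 of bta-miR-11987, 4 of the hsa-mir-1268a features and eca-mir-615-p5. Among these 4, hsa-mir-1268a-p3 and hsa-mir-1268a-p5 are 1 sequence with its reads divided evenly. Many of the 15 are end variants of each other, so counts over the 15 are not of independent features. Shares were lower in every SIX2_EV library for 0 of the 15 and for 28.8% of all features. DESeq2 called 8 of the 15 higher, and 4.17% of the 312 features with an adjusted p. Because the names were picked with this contrast in view, these counts are given beside the background and support nothing.

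By name, the fitted log2 fold change was 3.38 (SE 2.11) for bta-mir-2887-2-p5. For the bta-miR-11987 forms it lay between 3.19 (SE 1.24) in L-2R-1 and 3.86 (SE 1.23) in L-3. It was 4.43 (SE 1.19) for hsa-miR-1268a_R+2 and 3.87 (SE 0.94) for eca-mir-615-p5. Each SE was derived from the test, as the size of the fold change divided by the square root of its F value. Both bta-mir-2904 features were nearer 0, with 0.88 (SE 1.33) for the 26-base form and 0.85 (SE 1.21) for the 20-base form. Without control_EV replicate 1 these were 1.66 for the 26-base form and 1.84 for the 20-base form. The lowest values were 0.44 for the 26-base form without control_EV replicate 3 and 0.047 for the 20-base form without SIX2_EV replicate 2. Scaling by the total count in place of TMM moved the median of all features by over 1 log2 unit, to -1.54. On that scale the values were 1.93 for bta-mir-2887-2-p5, 2.93 for hsa-miR-1268a_R+2 and 2.20 for eca-mir-615-p5. Those of bta-mir-2904 turned to -0.31 for the 26-base form and -0.56 for the 20-base form. The distance between bta-mir-2887-2-p5 and the 26-base bta-mir-2904 form was above 2 log2 units on both scales.

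**Figure D4:**
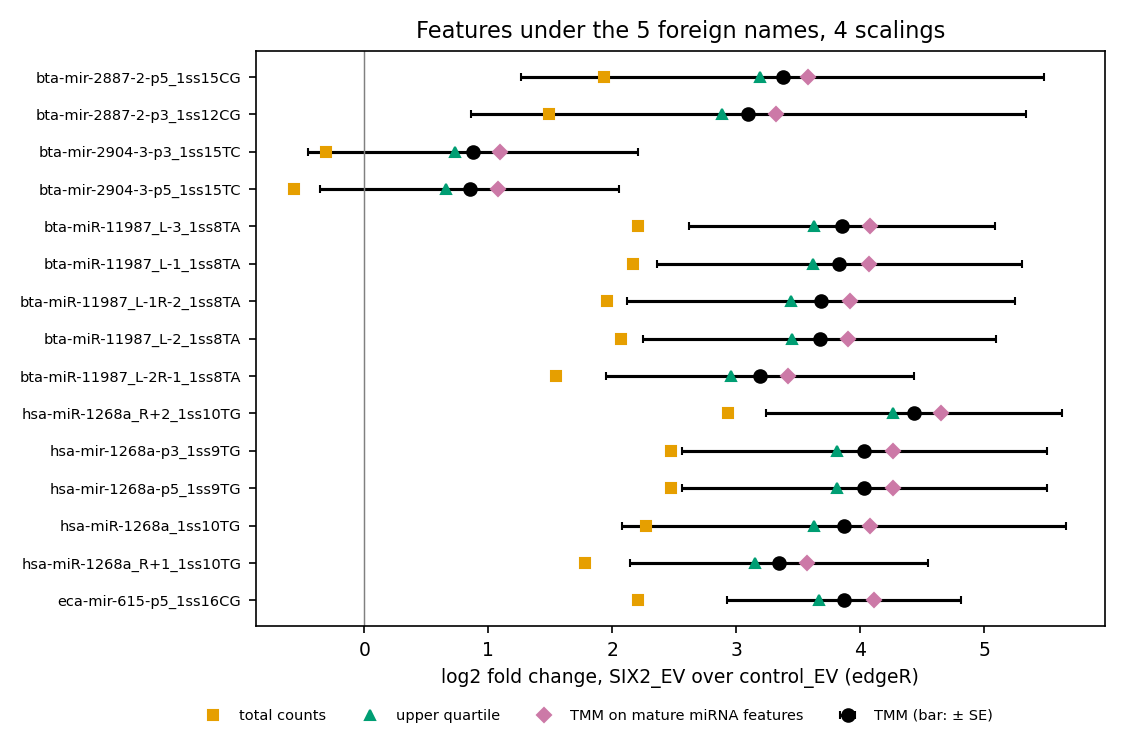
Log2 fold change, SIX2_EV over control_EV (x axis), of the 15 fitted features (y axis) under 4 scalings of the libraries. Bars for TMM give the SE derived from the F value of the test. All features lie above 0 except both bta-mir-2904 features with total counts, and the step from total counts to TMM shifts all of them to the right by a similar amount.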

How the data were processed

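Small RNA was sequenced in 6 libraries, 3 per group. Per the labels' protocols, Trizol total RNA went into TruSeq small RNA libraries, and ACGT101-miR removed adapter dimers, common RNA classes and repeats. Neither an aligner nor a miRBase release or genome build is given in the sources used here. Deposited columns hold estimated counts that need not be whole (89.8% of 2541 values above 0 were whole within 0.05), and the normalized signal of the authors, in which each library's counts are multiplied by 1 factor (0.2267 to 3.3986). The 823 rows were summed by name and sequence and rounded to whole reads for the fit. Shares use all 179621 to 421279 deposited reads of a library. edgeR 4.0.16 (R 4.3.3, TMM, filterByExpr, no block) was fitted to all features, with DESeq2 1.42.0 and other scalings and filters as alternatives. The fit was tested on simulated data with 1 fixed spread for all features. That test does not show how the fit behaves at the spread of these libraries. Sequences were matched to GENCODE M21 transcripts and RefSeq miRNAs by sequence alone. Both references are of mouse, and a match to rat transcripts or rat miRNAs was not tested. Replicates differed by more than counting error (chi-square per degree of freedom of at least 56.9), and all 6 were kept as separate libraries. Since the labels name no separate cultures, p-values measure only how these libraries vary, and that variation may be technical. The names, the list of suspected fragments, the markers and the rule for named features were chosen with earlier results of these data known. The rule named each name's most abundant feature, features with at least 1000 reads in 1 library or among 7 given ones, and the 3 other features most alike to each name.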

Additional observations from a re-analysis of the deposited data

How the results depend on the processing

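The count of features called by edgeR was 0 under each other scaling and filter, with rows summed by sequence and without each library in turn (0 to 0), whereas DESeq2 called 20. With the replicate number as a block, edgeR again called 0 (45 had an unadjusted p under 0.05), and the log2 fold change of 15 of 15 foreign-named features was positive; shares do not depend on a block. The labels name no pairing, so the numbers were not taken as pairs. Deviations from the group mean had correlations of 0.209, 0.067 and 0.673 between same-numbered libraries over 319 features. Between differently numbered libraries of the 2 groups they ran from -0.668 to 0.623. With reads divided by the TMM effective library in place of all reads, the values are no longer shares and can exceed the effective library itself. In percent of the effective library, the differences (SIX2_EV minus control_EV) were 88.4 for the sum, 55.99 for bta-mir-2887 and 24.2 for bta-miR-11987. They were 0.297 for hsa-mir-1268a, 0.112 for eca-mir-615 and 7.87 for bta-mir-2904. As shares of all reads the sum differed by 26.0 percentage points and bta-mir-2904 by -2.50, so the latter turned its sign. Leaving the other suspected fragments out of the total gave 38.0 points for the sum, 28.0 for bta-mir-2887, -1.42 for bta-mir-2904, 11.2 for bta-miR-11987, 0.156 for hsa-mir-1268a and 0.0606 for eca-mir-615. Without 1 library the range was 16.5 to 36.7 points for the sum, 16.0 to 28.5 for bta-mir-2887, -7.94 to 0.675 for bta-mir-2904, 4.70 to 11.6 for bta-miR-11987, 0.0860 to 0.147 for hsa-mir-1268a and 0.0336 to 0.0502 for eca-mir-615. The sum was lowest without control_EV replicate 3, and bta-miR-11987 without SIX2_EV replicate 2. Alternatives added after the data were seen gave a log2 ratio of group means for bta-mir-2904 of 0.94 in the authors' signal, 1.29 per read of miR-21-5p and 0.88 with TMM, against -0.33 as shares. With total counts its fitted values were -0.31 (26 bases) and -0.56 (20 bases). The cause of these reversals was not tested. Depth limits the rare bta-miR-11987 forms and the rarer hsa-mir-1268a features, whose lowest libraries lie near or below the minimum of about 5 reads for listing; the lowest library of eca-mir-615 had 21 reads.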
